A study of Mus musculus with 2 samples.

Results

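C-type lectins are receptors and secreted proteins that share a carbohydrate-recognition fold, and many of those on macrophages and dendritic cells bind fungal, bacterial or mucin sugars. Receptors such as Dectin-1, Dectin-2 and Mincle signal through the kinase Syk, directly or through adaptor chains, whereas receptors such as DCIR carry inhibitory motifs in their own tails. Siglecs are receptors of the immunoglobulin superfamily that bind sialic acid, and most of them dampen the cell that carries them.

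The genes described here are all those whose name in the array files begins with Clec and a digit, with Cd209 or with Siglec. There were 45 such genes, covered by 72 probes, among the 36866 gene names on the array. They were measured in cells collected with magnetic beads against EpCAM, a surface protein of epithelial cells, from submandibular glands, the animals being female C57BL/6 mice (C57BL/6N in the methods of the study). The young group was 1 mouse aged 9 weeks and the aged group was 1 mouse aged 24 months, with no treatment named, and each gave RNA for 1 Agilent array of 60-base probes labelled with Cy3. According to the methods of the study, the young animals came from a commercial breeder and the aged animals from the colony of the institute, so age and source cannot be told apart. Collection on beads enriches for epithelial cells and does not remove every leukocyte. Each age had a single array, so nothing below could be tested against the spread between animals and no p-value is given.

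Signals below are the deposited processed intensities of the spot, in the arbitrary units of the scanner, with the error that the image software gives for that spot. This error covers the spot and not the spread between mice. Differences are aged minus young on the log2 scale after each signal was divided by the 75th percentile of its own array, which was 256 in the young and 198 in the aged sample. A gene was called measured on an array when its brightest probe was marked well above background there, and dim when it was not, and a difference was called lower or higher when it reached 2-fold. A gene dim on 1 array has only a limit, written as at least so many fold. Signals of measured spots began at 14.1 in the young and 14.3 in the aged sample, and 55.4% and 50.8% of the non-control spots were well above background. Probes differ in how well they hybridize, so the level of one gene was not set against that of another.

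Of the 45 genes, 24 were measured on both arrays, 7 on the young array only, none on the aged array only and 14 on neither. Over all genes well above background on either array, 2.28% were of the aged-only kind, and 52.6% of those were higher by their limit. The share well above background on at least 1 array was 68.9%, beside 57.7% of all genes. Of the 24 genes measured on both arrays, 7 were at least 2-fold lower in the aged sample, beside 3.04% of all genes measured on both. None of the 24 was at least 2-fold higher, beside 1.51% of all genes. The 7 were Cd209f, Clec4b1, Clec4a3, Clec10a, Clec7a, Clec12a and Clec4a1, and their differences ran from -3.04 to -1.05. The other 17 ran from -0.80 to 0.61, with 12 of them above 0, of which 7 were so under every scaling tried. Below 0 were 12 of the 24, beside 7493 of the 18693 genes measured on both arrays, so most genes of the array lay above 0. The median over the 24 genes was -0.06 (from -0.30 to 0.13 over the scalings), beside 0.09 over all genes. Measured on the young array only were 9.89% of all genes well above background on either array, and 25.0% of those reached 2-fold lower by their limit. Among the 7 lectin genes of that kind, 2 did so, Cd209a and Clec2f. Measured values and limits together, 9 of the 31 lectin genes were lower, beside 5.14% of all genes.

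**Figure D1:**
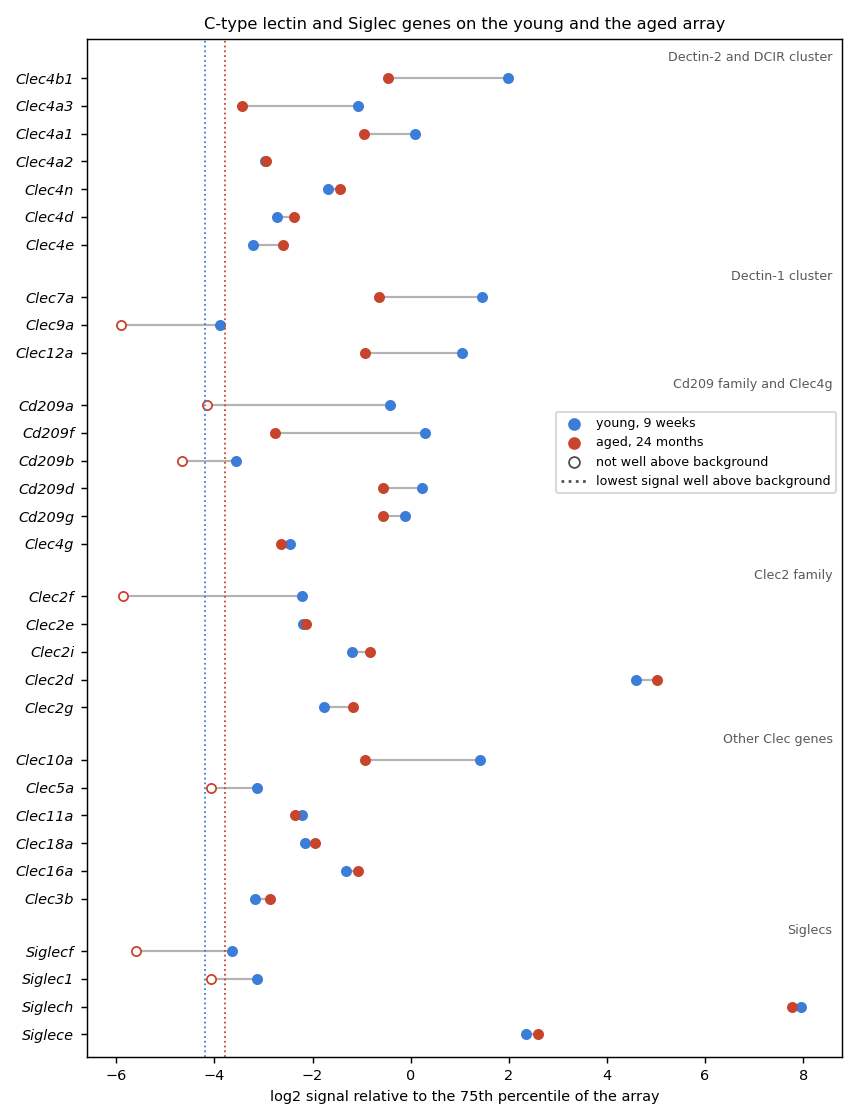
Each row is 1 of the 31 C-type lectin and Siglec genes measured on at least 1 array, grouped by family, and the x axis gives the log2 signal of its brightest probe relative to the 75th percentile of the array. Blue points are the young and red points the aged array, open points were dim, dotted lines mark the lowest signal well above background on each array, and the grey line joins the 2 arrays. The red point lies far to the left for 7 genes measured on both arrays, while every open point is on the aged array.

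Promoters were read because several of these genes moved together. RefSeq promoters on GRCm38.p6 were at hand for 36 of the 45 genes, and the 250 bases before the transcript start were searched on both strands. Motif GAGGAA, the core bound by the myeloid factor PU.1, was in 17 of the 36 (47.2%), beside 23.1% of all 27025 promoters. It was in 4 of 7 promoters of genes that were lower as measured or by limit (57.1%) and in 7 of 15 promoters of genes measured on both arrays and under 2-fold (46.7%). Motif TTGCNNAA, bound by C/EBP factors, was in 6 of the 36 (16.7%), beside 9.55% of all promoters, in 1 of the 7 (14.3%) and in 4 of the 15 (26.7%). These counts are small, and a match is a run of letters and not a site shown to be bound. The promoters of the 4 fallen genes that hold GAGGAA are shown here 5′ to 3′ on the strand of the gene, ending at the base before the start, with matches to either motif on either strand in capitals.
Clec4b1, chr6:123049712-123049961, plus strand: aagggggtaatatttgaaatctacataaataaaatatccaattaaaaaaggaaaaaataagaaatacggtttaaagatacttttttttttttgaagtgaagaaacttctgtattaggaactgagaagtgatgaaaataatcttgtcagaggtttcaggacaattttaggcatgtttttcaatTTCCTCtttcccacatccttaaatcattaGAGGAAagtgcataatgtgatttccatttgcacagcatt
Clec7a, chr6:129472780-129473029, minus strand: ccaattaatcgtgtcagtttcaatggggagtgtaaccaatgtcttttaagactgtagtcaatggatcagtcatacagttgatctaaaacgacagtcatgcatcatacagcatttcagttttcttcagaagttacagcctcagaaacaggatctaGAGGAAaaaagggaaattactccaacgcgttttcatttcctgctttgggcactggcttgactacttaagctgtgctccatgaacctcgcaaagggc
Clec12a, chr6:129349994-129350243, plus strand: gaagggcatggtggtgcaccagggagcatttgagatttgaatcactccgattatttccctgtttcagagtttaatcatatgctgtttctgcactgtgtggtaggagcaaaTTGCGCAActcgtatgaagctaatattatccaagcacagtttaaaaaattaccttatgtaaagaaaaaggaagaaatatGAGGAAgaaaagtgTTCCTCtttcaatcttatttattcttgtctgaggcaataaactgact
Clec4a1, chr6:122921598-122921847, plus strand: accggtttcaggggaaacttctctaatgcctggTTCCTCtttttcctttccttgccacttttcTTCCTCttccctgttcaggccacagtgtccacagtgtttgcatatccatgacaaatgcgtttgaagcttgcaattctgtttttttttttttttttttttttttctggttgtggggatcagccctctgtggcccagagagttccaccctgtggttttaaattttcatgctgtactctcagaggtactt
Clec12a holds both motifs in this window, and Clec4b1, Clec7a and Clec4a1 hold the PU.1 core alone. Cd209f, Clec4a3 and Cd209a, also lower as measured or by limit, hold neither motif. Clec10a and Clec2f had no promoter at hand.

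The Dectin-2 and DCIR cluster holds 9 of the genes, and their probes lay within 348 kb on chromosome 6 (chr6:122884578-123232937 on NCBI37, the build of the array files). Both arrays measured 7 of the 9, and 3 of these fell, namely Clec4b1, Clec4a3 and Clec4a1. Clec4b1, a receptor of the DCIR and DCAR group named after dendritic cells, went from a signal of 1007 ± 101 to 143 ± 14.8. It was 5.43-fold lower in the aged sample (log2 difference -2.44, spot error 0.21). Its second probe read 144 on the young array and was dim on the aged array, which makes it at least 6.91-fold lower. Both probes of Clec4b1 thus passed 2-fold. Clec4a3, a close relative of DCIR, went from 122 ± 12.5 to 18.4 ± 3.59, which was 5.12-fold lower (-2.36). The aged value of Clec4a3 lay just above the lowest signal of a measured spot. Clec4a1, another DCIR relative, went from 272 ± 27.5 to 102 ± 10.8 and was 2.07-fold lower (-1.05), close to the threshold.

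The other 4 genes of the cluster did not follow these 3. Clec4a2, which encodes the inhibitory receptor DCIR itself, went from 32.5 to 25.7, a log2 difference of 0.03 with a spot error of 0.30. Clec4n, which encodes Dectin-2, a receptor for fungal mannans that signals through the Fc receptor gamma chain, went from 79.7 to 72.8, a difference of 0.24. Their genomic neighbours Clec4d and Clec4e encode MCL and Mincle, receptors for mycobacterial glycolipid. Clec4d had signals of 38.5 and 38.3 (0.36), and Clec4e of 27.6 and 32.5 (0.61). All 4 stayed under 2-fold, and the value of Clec4e was the highest of the 24 lectin genes measured on both arrays. Clec4a4 and Clec4b2 were dim on both arrays. Within the cluster, differences ran from -2.44 to 0.61.

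The Dectin-1 cluster holds 6 of the genes within 97.4 kb further along chromosome 6 (chr6:129314367-129411798 on NCBI37). Both genes of it that were measured on both arrays fell. Clec7a, which encodes Dectin-1, the myeloid receptor for fungal beta-glucan, went from a signal of 702 ± 70.3 to 126 ± 13.0. It was 4.30-fold lower (log2 difference -2.10, spot error 0.21). Clec12a, which encodes an inhibitory receptor of myeloid cells for uric acid crystals, went from 526 ± 52.7 to 104 ± 10.8 and was 3.90-fold lower (-1.96). The Clec12a probe shares 18 bases with a probe for A430088P11Rik, whose own signals of 35.8 and 25.3 gave a difference of -0.13. Clec9a, which encodes a receptor for the actin of dead cells on cross-presenting dendritic cells, read 17.3 ± 3.73 on the young array and was dim on the aged array. Its scaled young signal lay below the lowest one measured on the aged array, so no limit could be given. Clec12b, Clec1a and Clec1b, the last of which encodes the podoplanin receptor of platelets, were dim on both arrays.

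The Cd209 genes and Clec4g, 8 genes in all, had probes within 422 kb on chromosome 8 (chr8:3716182-4137710 on NCBI37). Cd209 genes are the mouse relatives of DC-SIGN, a receptor of dendritic cells and macrophages for mannose and fucose. Cd209f went from a signal of 312 ± 31.3 to 29.3 ± 4.42. It was 8.23-fold lower (log2 difference -3.04, spot error 0.26), and 15 of the 18693 genes measured on both arrays fell further, but after normexp background correction the difference was -1.73. Cd209a, the DC-SIGN homologue expressed by dendritic cells, read 191 ± 19.4 on the young array and was dim on the aged array. It was therefore at least 10.4-fold lower, and its second probe, with 52.1 on the young array only, was at least 2.82-fold lower. After normexp background correction the difference of Cd209a was -1.37. Both probes of Cd209a thus went from measured to dim.

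Cd209d went from 302 ± 30.3 to 134 ± 13.7, a difference of -0.80 by its brightest probe. Its second probe, 34.7 on the young array and dim on the aged array, was at least 1.88-fold lower. Cd209g went from 237 ± 23.9 to 134 ± 13.7, a difference of -0.45. Clec4g, which encodes a lectin known from sinusoidal endothelium of the liver, went from 46.8 to 31.6, a difference of -0.20 with a spot error of 0.29. All 4 genes of this family measured on both arrays were below 0, with 1 of them past 2-fold, although Clec4g turned to 0.10 after normexp background correction. Cd209b, the marginal zone macrophage receptor SIGN-R1, was measured on the young array only, at 21.6 ± 4.20, and was at least 1.17-fold lower. Cd209c and Cd209e were dim on both arrays.

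**Figure D2:**
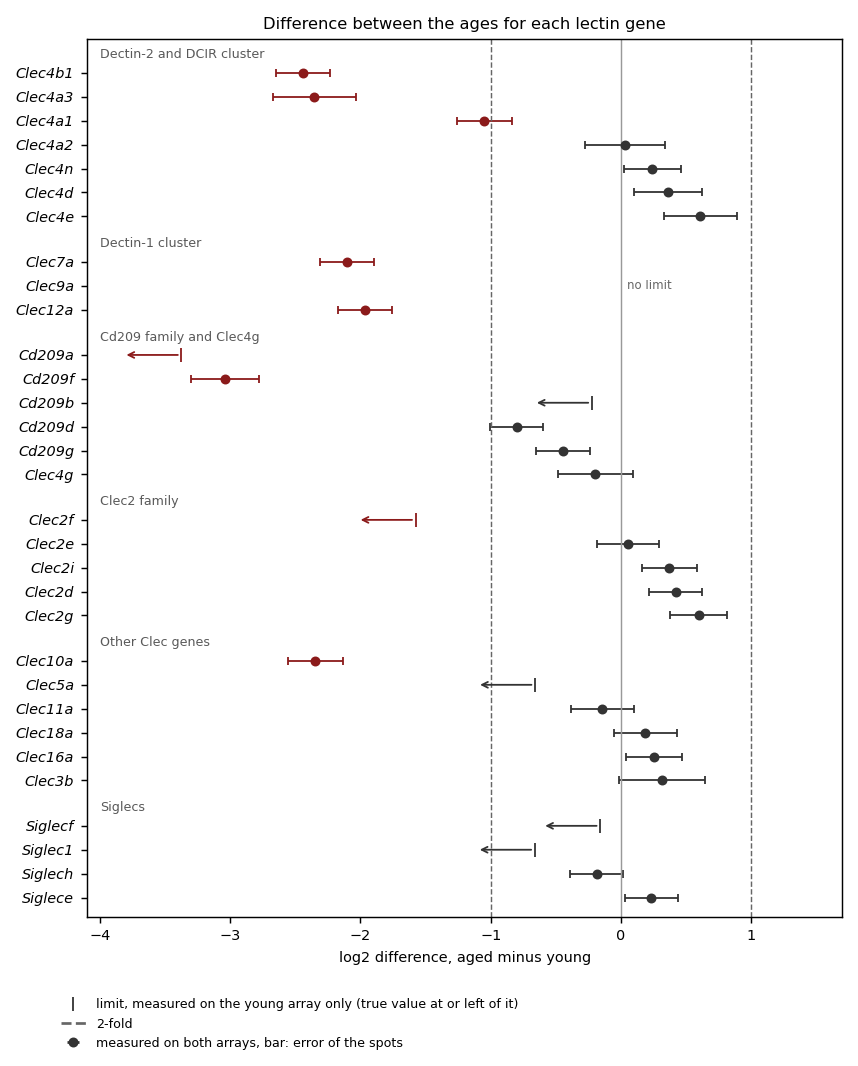
The x axis gives the log2 difference between the ages, aged minus young, of the 31 C-type lectin and Siglec genes measured on at least 1 array, grouped by family, with dashed lines at 2-fold. Points are genes measured on both arrays with the error of the spots as bars, short vertical marks with an arrow to the left are limits for genes measured on the young array only, and dark red marks those at least 2-fold lower. The points of the fallen genes run from -3.04 for Cd209f to -1.05 for Clec4a1, and no gene lies right of 0.61.

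Clec10a, which encodes the galactose-type lectin MGL1 of macrophages and dendritic cells and lies on chromosome 11, went from 684 ± 68.5 to 104 ± 11.0. It was 5.09-fold lower (log2 difference -2.35, spot error 0.21). Its second probe read 21.1 on the young array and was dim on the aged array, so it gave only at least 1.14-fold lower. Clec5a, which encodes a myeloid receptor that signals through the adaptor Tyrobp, was measured on the young array only, at 29.2 ± 4.27, and was at least 1.58-fold lower. The remaining genes of mixed location encode secreted or intracellular proteins or were dim. Clec11a, a secreted growth factor of bone and marrow, went from 55.3 to 38.7 (-0.14), and Clec18a, a secreted lectin, from 57.9 to 51.0 (0.19). Clec16a, an intracellular protein of endosomal traffic and mitophagy, had signals of 103 and 94.4 (0.25). Clec3b, which encodes the plasminogen-binding protein tetranectin, had signals of 28.4 and 27.3 (0.32). All 4 were under 2-fold, with spot errors of 0.21 to 0.33. Clec14a, Clec3a and Clec4f were dim on both arrays.

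Several genes of the Clec2 family encode ligands for receptors of natural killer cells, and 7 genes of the family are on the array. Both arrays measured 4 of these, and all 4 were above 0 and under 2-fold, although Clec2e turned to -0.19 on the spike-in controls. Clec2d, the widely expressed ligand of the inhibitory receptor Klrb1b, read 6209 ± 621 in the young and 6423 ± 642 in the aged sample, a difference of 0.42. Its second probe, which overlaps the first on the genome, gave 0.43. Clec2g had signals of 75.3 and 88.0 (0.60), Clec2i of 112 on both arrays (0.37) and Clec2e of 56.3 and 45.1 (0.05). None of these 4 genes came near a 2-fold change. Clec2f, with 55.1 ± 8.18 on the young array, was dim on the aged array and was at least 2.98-fold lower, a call that was lost after normexp background correction (-0.52). Its probe shares 18 bases with a probe named NAP020399-001 that was dim on both arrays. Clec2h and Clec2l were dim on both arrays. Of the Klrb1 receptor genes read beside them, Klrb1a and Klrb1b were measured on the young array only, at 26.3 and 22.0, and Klrb1f on neither.

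Of the 6 Siglec genes, 2 were measured on both arrays. Siglece, an inhibitory Siglec of myeloid cells, read 1311 ± 131 in the young and 1191 ± 119 in the aged sample, a difference of 0.23. Siglec1, the sialoadhesin of macrophages, was measured on the young array only, at 29.2 ± 4.59, and was at least 1.58-fold lower. Siglecf, known from eosinophils and alveolar macrophages, was likewise measured on the young array only, at 20.6 ± 3.60, and was at least 1.12-fold lower. Neither limit reached 2-fold, and Siglec15 and Siglecg were dim on both arrays.

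Siglech, a marker of plasmacytoid dendritic cells, read 63815 in the young and 43298 in the aged sample by its brightest probe, a difference of -0.19. Its other probes were dim on both arrays, with signals of 9.14 and 10.0 for one and 3.19 and 3.23 for the other. The bright probe shares stretches of 18 bases with 8 probes of 8 other gene names, and the 6 of these measured on both arrays had differences from -0.43 to 0.86 with a median of -0.09. Stretches of 30 bases are shown because they tell the bright probe from the dim ones, with bases shared with probes of other genes in capitals and in the orientation of the files.
Siglech bright probe, bases 4 to 33, chr7:63034088-63034147: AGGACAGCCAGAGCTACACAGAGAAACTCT
Siglech dim probe, bases 1 to 30, chr7:63028608-63028667: attggattaatccagtgtgtgaacagtctt
Siglech other dim probe, bases 1 to 30, chr7:63024045-63024269: caaaacatggaatttctgtgaggaaaggat
The coordinates are those of the whole probes on NCBI37. Every base shown of the bright probe is shared and none of the dim probes, and whether the high signal came from Siglech alone was not tested. Without Siglech, 7 of 23 genes were lower and the median was 0.03.

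The 7 fallen genes are known from macrophages and dendritic cells, although not every lectin gene of myeloid cells fell, with Siglece at 0.23. Markers of the cell types that a bead fraction could hold were therefore read beside the lectin genes. In such a sample, fewer cells of a type and less RNA per cell cannot be told apart. Of 11 dendritic cell markers, 9 were measured on both arrays and all 9 fell (7 to 9 over the scalings), with a median of -2.05. These included H2-Ab1 at -2.11, a chain of MHC class II, and Ccr7 at -2.69, a chemokine receptor of migrating dendritic cells. The list is not particular to dendritic cells. Macrophages and B cells also express the MHC class II genes H2-Aa, H2-Ab1, Cd74 and Ciita, and Cst3 is widely expressed. Zbtb46, measured on the young array only at 21.5, was at least 1.16-fold lower by its limit, which is short of 2-fold. Xcr1, a defining marker of cross-presenting dendritic cells, was dim on both arrays. Summed over the dendritic cell markers, the signal relative to the 75th percentile went from 218 to 59.4. Such a sum follows its brightest probes, here those of H2-Ab1 and Cd74. Of 15 macrophage and monocyte markers, all measured on both arrays, 10 fell (7 to 11 over the scalings), with a median of -1.14 and a summed level of 234 and 127. Among them Lyz2 had -1.91, Cd163 -1.86 and Adgre1 -1.36, whereas Itgam had -0.05 and Ly6c2 0.25. Of 4 markers of leukocytes in general, 3 fell, with a median of -1.51 and a summed level of 19.6 and 9.13, though Ptprc, which encodes CD45, had -0.21. The part of these markers in the lectin values was not tested.

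Markers of other cell types were read in the same way. Of 6 plasmacytoid dendritic cell markers, 5 were measured on both arrays and none of these reached 2-fold, with a median of -0.11 (from -0.36 to 0.06 over the scalings) and a summed level of 26.3 and 25.2. Other cells also express several of them, such as Irf7 and Bst2. Spib, measured on the young array only at 25.4, was at least 1.38-fold lower by its limit. Of 8 natural killer and T cell markers, 6 were measured on both arrays, none of these fell and Gzma rose by 2.45, with a median of 0.54, a summed level of 5.37 and 8.12 and Ncr1 dim on both. Of 7 B cell markers, 3 were measured on both arrays and Cd79b fell by 2.14 (0 to 1 genes lower over the scalings), while Cd79a and Blk were dim on both, with a summed level of 1.95 and 1.57. Neutrophil and eosinophil markers were measured on both arrays in 2 of 6 and 1 of 4 cases, none of them past 2-fold, with Cxcr2, Mpo, Epx and Prg2 dim on both. Summed levels were 79.8 and 69.2 for neutrophils and 0.53 and 0.68 for eosinophils. The neutrophil sum was nearly all the probe of Csf3r, with signals of 20357 and 13610 (-0.21), whereas Ly6g read 68.7 and 46.7. Of 8 fibroblast markers, 6 were measured on both arrays and the 3 collagen genes Col1a1, Col1a2 and Col3a1 fell, with a median of -1.21 and a summed level of 19.0 and 9.06. Of 8 endothelial markers, 6 were measured on both arrays and none of these reached 2-fold, with a median of -0.56 and a summed level of 6.39 and 4.33. By limits, Cd3g, Erg and Pdgfra were lower and Ngp higher. The labelled cells were checked by 10 epithelial markers. Of these, 9 were measured on both arrays and under 2-fold, and none was dim on both. Their median was 0.20 (from -0.19 to 0.37 over the scalings), with Epcam itself at 1778 and 1573 (0.20), Krt18 at 0.21 and the acinar water channel Aqp5 at 0.49, and a summed level of 665 and 787. Krt19, measured on the young array only at 34.2, was at least 1.85-fold lower by its limit. That limit reached 2-fold on the spike-in controls and with the percentile over probes measured on both arrays.

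**Figure D3:**
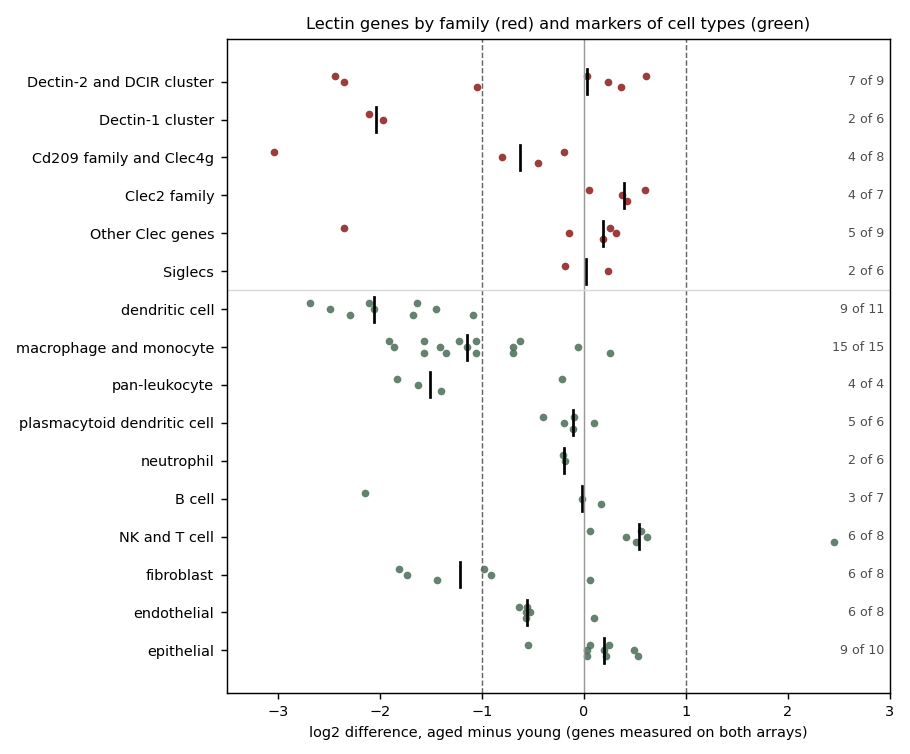
Each row is a family of lectin genes (red) or a list of cell type markers (green), and the x axis gives the log2 difference of each gene measured on both arrays, aged minus young. Points are genes, black bars are medians, dashed lines mark 2-fold, and the counts at the right give the genes measured on both arrays out of all in the row. The fallen lectin genes run from -3.04 to -1.05, the dendritic cell markers from -2.69 to -1.09 (median -2.05) and the macrophage markers from -1.91 to 0.25 (median -1.14), while the Clec2 family and the epithelial markers (median 0.20) lie near 0.

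Further lectin and sialic acid receptors outside the naming rule were read from a list of 25. Both arrays measured 14 of them, and 3 fell, namely Asgr2 (-2.28), Mrc1 (-1.88) and Cd302 (-1.44). Mrc1 encodes the mannose receptor of macrophages. The highest values were 0.65 for Cd248 and 0.47 for Klrk1, both under 2-fold, and the median was -0.27. Klrd1, measured on the young array only, was lower by its limit.

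The signalling genes through which these receptors act were 16, of which 15 were measured on both arrays. Of these, 4 fell and none rose. Syk, the kinase below Dectin-1 and the adaptor chains, went from a signal of 258 to 51.7 and was 3.85-fold lower (log2 difference -1.95). Tyrobp, the adaptor of Clec5a and Siglech, had -1.36, Fcer1g, the Fc receptor gamma chain that pairs with Dectin-2 and Mincle, had -1.08, and Inpp5d, an inhibitory phosphatase, had -1.24. Src, a kinase of many cell types, had 0.05. The median of the 15 was -0.38, and Card9, the adaptor below Syk, was dim on both arrays.

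Siglec ligands are made by sialic acid synthesis and sialyltransferases, and all 24 such genes on the list were measured on at least 1 array. Both arrays measured 19 of them, with a median of 0.04 (from -0.27 to 0.22 over the scalings). St8sia4, a polysialyltransferase, and St6galnac6 fell (-1.93 and -1.09), although the count ran from 0 to 2 over the scalings. The highest values were 0.94 for St6galnac1 and 0.63 for St6galnac2, both under 2-fold, and the count of genes higher ran from 0 to 1 over the scalings. By limits, St6gal1 was lower in the aged sample and St6galnac3 higher. Of 8 genes listed as partners or ligands of the receptors, 4 were measured on both arrays and none of these reached 2-fold. Cd24a had 0.37, Pdpn 0.29 and Mmrn2 -0.27.

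How far a call rested on the scaling was read from 7 ways of setting the arrays level. Cd209f, Clec4b1, Clec10a, Clec7a and Clec12a were at least 2-fold lower under all 7. Clec4a3 was so under 6 of 7, with -0.96 after normexp background correction, and Clec4a1 under 5 of 7, with values up to -0.66. Cd209d reached 2-fold under 1 of 7, at -1.05 when spike-in controls set the level. No member was at least 2-fold higher under any of them. The count of lectin genes lower ran from 5 to 8. Siglech moved more than most, from -0.80 to -0.01. Small values above 0 are less firm, since the spike-in scaling shifted the median of all genes by -0.25 and centring on the median by 0.17, and Clec4a2, Clec2e, Clec18a, Clec4n and Siglece turned below 0 under at least 1 scaling. Calls higher made up 33.3% of all calls past 2-fold over all genes, beside 52.7% when centred on the median and 14.4% on the spike-in controls. The direction of Clec4d, Clec4e, Clec2d, Clec2g, Clec2i, Clec3b and Clec16a was above 0 under all 7, though the lowest value was 0.01 for Clec16a and 0.03 for Clec2d.

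**Figure D4:**
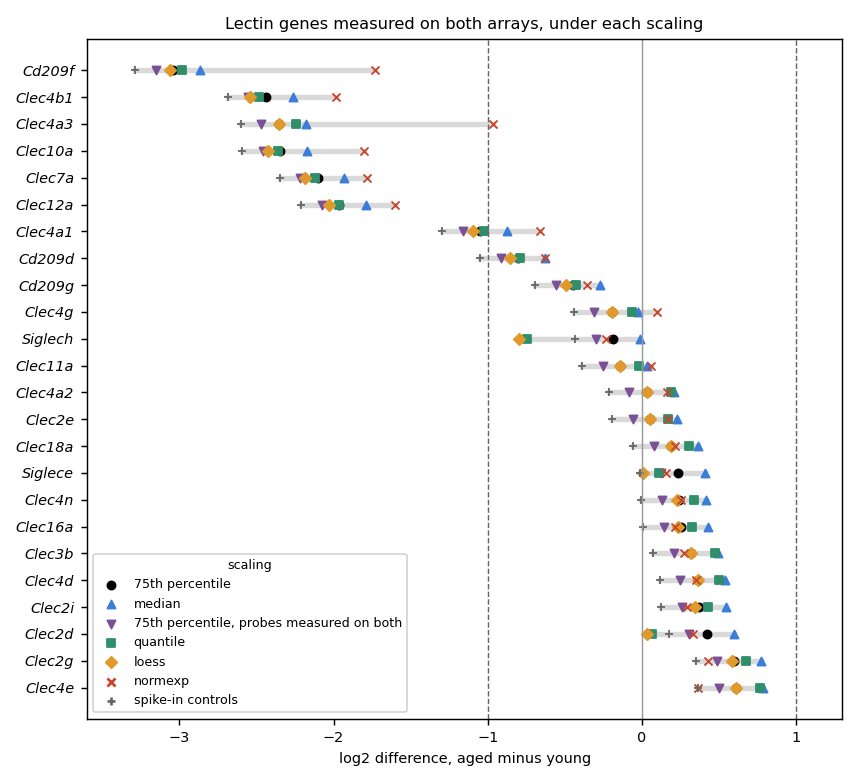
Each row is 1 of the 24 lectin genes measured on both arrays, ordered by its difference, and the x axis gives the log2 difference, aged minus young, with dashed lines at 2-fold. Symbols are the 7 scalings and the grey bar spans them. Cd209f, Clec4b1, Clec10a, Clec7a and Clec12a stay left of the 2-fold line under every scaling, while Clec4a3 and Clec4a1 cross it.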

How the data were processed

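The authors scanned 1 one-colour Agilent array per age and deposited the processed intensity of each spot from Agilent Feature Extraction 12.0.3.1, which per the file headers is background-subtracted and detrended with no scaling between arrays. Spots without a measurable signal carry a small substitute written by the software. The authors' table holds the same signal divided by 1 constant per array (229 young, 176 aged, followed by every spot within 0.00408%), and its intensities served as an alternative only. The authors' methods name the 75th percentile scaling and the 2-fold threshold.

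From the scanner intensities, log2 of the signal minus log2 of the array's 75th percentile over 59305 non-control spots was taken. Outlier spots (90 and 93, none of them in the lectin genes) were left out, and no spot was saturated. A gene took its brightest probe by mean log2 signal, with probes measured on either array before dim ones, and all genes matching the name rule were described. Where 1 array was dim, the limit set the bright value against either the lowest signal of a measured spot there or the probe's own dim value, whichever was higher. Of the 45 names, 43 matched RefSeq and none changed. The members and lists were chosen with earlier results of these data known. Alternatives were 6 other scalings (centring on the median, a 75th percentile over probes measured on both arrays, quantile, loess with span 0.7 and 3 iterations, normexp with an offset of 50, spike-in controls), outlier spots kept, the mean of kept probes, any probe, other filters on dim probes and the authors' table. Leaving out Siglech, and members whose probe shares 18 bases with another name, were alternatives chosen after seeing the data. R 4.3.3, limma 3.58.1, Python 3.11.15, numpy 2.4.6, pandas 2.3.3 and matplotlib 3.10.9 were used, and the steps were tested on simulated data. The number of arrays, 1 per age, limits the precision.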

Additional observations from a re-analysis of the deposited data

How the results depend on the processing

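The count of 7 lectin genes lower, measured on both arrays, ran from 5 to 8 under the other scalings, the probe rules, the kept outlier spots and the authors' table, and none was higher under any alternative. Counting genes measured on 1 array by their values as they stand gave 12 lower, and dropping the filter on dim probes gave 14, since both let in values near the background. The genes lower by limit numbered 1 after normexp in place of 2, since Clec2f had -0.52 there. The median of -0.06 was -0.30 when spike-in controls set the level, a scaling that shifts all genes alike, by -0.25. Cd209b, measured on the young array only, had 0.10 after normexp in place of -1.09. The offset of 50 that normexp adds is larger than both its signals, 21.6 in the young and 7.80 in the aged sample. The cause of the shift was not tested. Of 279 differences of single genes recomputed under 9 alternatives, 239 moved by less than the spot error. Several alternatives could hardly show otherwise. Kept outlier spots touch no lectin gene, and the authors' table is the same signal over a constant per array. Centring on the median and the percentile over probes measured on both arrays shift all genes alike, by 0.17 and -0.11. The smallest spot error was 0.204. Each of these alternatives left all 31 genes within the error. Quantile left 29, loess and the mean of kept probes 28, normexp 16 and the spike-in controls 14. Of the values past 2-fold only that of Cd209b changed sign, whereas smaller ones crossed 0 more often, such as Siglec1 (0.13), Clec4g (0.10) and Clec11a (0.06) after normexp. Without Siglech 7 genes were lower, and over genes whose probe shares no 18 bases with another name 6 were. Signals near the lowest one well above background limit what the faint genes can show. No paired analysis was possible because each age has 1 array.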
